A study of Mus musculus with 6 samples.

Results

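Glycolysis, lactate and hypoxia genes were examined in the whole retina of female mice of the inbred strain DBA/2J, in which raised intraocular pressure and glaucoma develop with age. The members were 40 genes chosen by name: 17 glycolytic and lactate enzymes, 4 glucose and lactate transporters, 5 regulatory kinases, 7 genes of oxygen sensing and 7 genes known to respond to low oxygen. Of these, 37 had at least 1 probe set assigned to that gene alone, and all 37 passed the filter on low signal, among 11220 genes that passed in all. A probe set is the group of array probes designed for 1 transcript. Gpi1, Eno1 and Bnip3l had no probe set assigned to them alone and were not analysed in the comparison.

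Both groups were female DBA/2J animals, and the labels name no treatment in either. The younger group was 3 months old with normal pressure, the older group 8 months old with elevated pressure, and each held 3 retinas from separate animals, 1 retina per Affymetrix array. Final pressure was 17.5 ± 1.99 mmHg and 27.4 ± 2.67 mmHg (SD, n = 3 each), and because animals were selected on pressure, age and pressure cannot be told apart. All 3-month retinas and 8-month retina 1 came from left eyes, whereas 8-month retinas 2 and 3 came from right eyes. Retinas of C57BL/6J control animals were not analysed here.

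The arrays correlated with one another at Pearson r between 0.985 and 0.994 over the probe sets tested. Markers of rods, cones, Müller glia and the inner retinal neurons read above the filter, other than Onecut1 of horizontal cells, and the red-cell genes in the annotation, Hba-a1 and Alas2, stayed below it. Lens crystallin transcripts marked 2 retinas that stood apart. The mean log2 level of 8 lens markers, 4 of them above the filter, was 8.16 in 3-month retina 3. It was 7.12 in 8-month retina 1 and lay between 3.22 and 4.58 elsewhere. Microglial markers averaged 5.55 to 5.69 at 3 months and 5.96 to 6.11 at 8 months, and gliosis markers 5.17 to 5.54 and 5.62 to 6.82 (log2). Marker means of 4 retinal cell classes were also separated by age. Cones averaged 9.35 to 9.52 at 3 and 9.14 to 9.18 at 8 months, ganglion cells 8.35 to 8.53 and 8.23 to 8.25, Müller glia 10.75 to 10.90 and 10.91 to 11.09, and amacrine cells 10.25 to 10.31 and 10.34 to 10.45. The Müller means nearly touched. Of that class, Glul and Aqp4 were apart by age, whereas Rlbp1, Slc1a3 and Vim overlapped. Vim was highest in the 2 retinas rich in lens transcripts. Single markers of the other classes overlapped too, such as Arr3 of cones, Rbpms of ganglion cells and Slc6a9 of amacrine cells. The separation thus held for the class means and not for every marker. The part of these cell classes in the member differences was not tested.

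Glycolysis splits glucose into pyruvate in the cytosol. Hexokinase, phosphofructokinase and pyruvate kinase carry its controlled steps, and lactate dehydrogenase turns pyruvate into lactate, which monocarboxylate transporters pass across membranes. The retina is known for making much lactate even when oxygen is present. When oxygen falls, prolyl hydroxylases of the Egln family no longer mark the HIF alpha subunits for destruction by the VHL ubiquitin ligase, and HIF with its partner ARNT raises many glycolytic genes and a set of stress genes. That control acts largely on HIF protein, which these arrays do not measure.

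HIF binds DNA at a short core, read here as the letters ACGTG or GCGTG on either strand. Windows of DNA just upstream of transcription starts introduce the members that differed most among the older retinas. Each is 150 bases ending at the base before a RefSeq start (GRCm38.p6), printed 5′ to 3′ on the gene's strand, with matches to the core in capitals, where a run of 6 capitals is a match on both strands.
Adm, chr7:110627507-110627656, plus strand: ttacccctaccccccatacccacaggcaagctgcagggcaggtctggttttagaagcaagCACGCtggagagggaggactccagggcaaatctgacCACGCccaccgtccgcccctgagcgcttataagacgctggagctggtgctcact
Slc16a3, chr11:120948917-120949066, plus strand: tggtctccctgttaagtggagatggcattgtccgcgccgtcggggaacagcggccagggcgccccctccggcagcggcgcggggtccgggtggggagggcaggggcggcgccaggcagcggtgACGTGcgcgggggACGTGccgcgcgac
Pfkfb3, chr2:11502091-11502240, minus strand: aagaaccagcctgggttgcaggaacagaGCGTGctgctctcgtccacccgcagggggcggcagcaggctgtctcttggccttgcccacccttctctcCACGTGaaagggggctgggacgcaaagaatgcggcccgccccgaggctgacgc
Egln1, chr8:124949255-124949404, minus strand: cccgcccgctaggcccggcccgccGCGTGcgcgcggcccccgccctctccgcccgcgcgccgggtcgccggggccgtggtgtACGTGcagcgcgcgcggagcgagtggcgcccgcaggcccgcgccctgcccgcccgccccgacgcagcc
For Pfkfb3 the window of the start with more matches is shown, and the other start listed has 1. In Slc16a3 the core occurs at 27 and 14 bases upstream of the start, and in Egln1 at 126 and 68. The Adm matches are on the reverse strand. Over the full 300-base windows, from 250 bases before to 50 after a start, 30 of the 34 members found in the RefSeq promoter table held a match, or 88.2%, against 46.7% of all 27025 genes there. Members had 51 windows, of which 80.4% held a match, against 43.8% of all windows. Their median GC content was 62.3% against 52.7% over all windows, and both cores contain CG, so base composition moves with the count and its part was not tested. A match in the letters is not evidence of binding.

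Between ages, no member passed the test. With limma and Benjamini-Hochberg adjustment over 20976 probe sets, 0 of 37 members had an adjusted p under 0.05, against 0.00891% of all genes, which is 1 gene. At an unadjusted p under 0.05 there were 5 members, Hk1, Pgam1, Pfkfb2, Hif1a and Egln3, or 13.5% beside 15.1% of all genes. The older mean exceeded the younger one in 3 of the 5 and fell short in 2, and after median centring of the arrays such members numbered 6 and 1. The split over all genes, 3.58% higher and 11.5% lower, likewise turned to 8.54% and 5.02% with that centring. The values of the ages did not overlap in 10 members, or 27% beside 23% of all genes. Both shares lay near the background. The 5 became 2 without 3-month retina 1, 1 without 8-month retina 1, and 1 without both lens-rich retinas, where the shares of all genes were 11.7%, 9.48% and 7.02%.

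The intervals bounded the size of the differences. The 95% interval of the 8-month to 3-month ratio lay within 1.5-fold in either direction for 32 members, or 86.5%, as it did for 81.4% of all genes, and within 2-fold for 36, or 97.3% beside 97.8%. All 15 measured enzymes were within 1.5-fold, each by its brightest probe set. The exceptions were Slc16a3, Pdk3, Pfkfb3, Hif1a and Adm, and of these only Adm exceeded 2-fold. Differences above 0 were seen in 16 members and below 0 in 21, that is 43.2% above 0 beside 36.5% of all genes, with a median log2 difference of -0.03 against -0.06 over all genes. Because whole retinas were measured, fewer cells of a type and less RNA per cell cannot be told apart in any of these values.

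**Figure D1:**
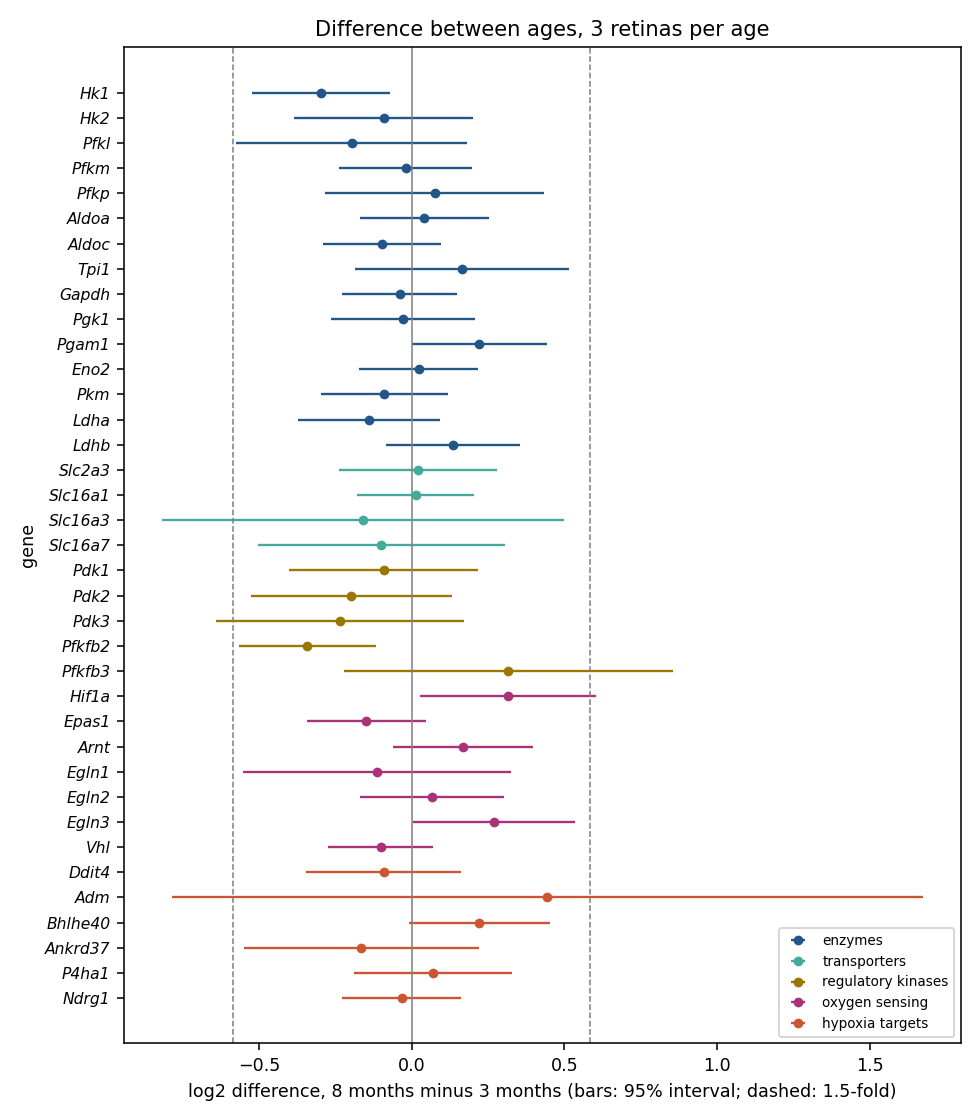
Log2 difference between 8 and 3 months (horizontal axis) for each of the 37 measured genes (vertical axis), with 95% intervals from limma as bars, coloured by role. Dashed lines mark 1.5-fold, and the bars of all 15 enzymes end inside them, whereas that of Adm runs from -0.79 to 1.67.

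Among the glycolytic enzymes, 6 of 15 had differences above 0 and 9 below, with a median log2 difference of -0.03. The difference ran from -0.30 for Hk1 to 0.22 for Pgam1. Hexokinase 1, encoded by Hk1, carries out the first step of the pathway in most neurons. Its log2 level was 8.67, 8.72 and 8.73 at 3 months and 8.27, 8.41 and 8.56 at 8 months, retinas 1 to 3 in that order here and throughout, so every older retina lay below every younger one. The difference was -0.30 ± 0.10 (SE), a 1.23-fold lower mean, and did not pass (limma adjusted p = 0.273). A dimmer Hk1 probe set differed by -0.13. Hk2, the hexokinase of photoreceptors, read 12.04, 11.60 and 11.72 at 3 months and 11.69, 11.63 and 11.77 at 8 months, with the ages overlapping and a difference of -0.09 ± 0.12 (SE; limma adjusted p = 0.744).

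In the middle of the pathway the interval of every gene's brightest probe set lay within 1.5-fold, whereas those of dimmer Aldoc and Aldoa sets reached beyond it. Pgam1, the phosphoglycerate mutase of most tissues, read 12.24, 12.35 and 12.18 at 3 months and 12.50, 12.36 and 12.58 at 8 months. Its ages just failed to overlap, at a difference of 0.22 ± 0.09 (SE; limma adjusted p = 0.334). Gapdh, which oxidises glyceraldehyde 3-phosphate and is often taken as a reference gene, was read by 3 control probe sets of the array. Its brightest read 13.10, 13.11 and 13.16 at 3 months against 13.09, 13.00 and 13.16 at 8 months, a difference of -0.04 ± 0.08 (SE; limma adjusted p = 0.831). Centring each array on its median turned that to 0.04. The 3' minus 5' signal of the same control was 0.707 to 0.751 at 3 months and 0.755 to 0.811 at 8 months (log2). The ages therefore did not overlap in this measure of RNA integrity. The same measure of the beta-actin control was 1.62 to 1.87 at 3 months and 1.71 to 1.84 at 8 months, with the ages overlapping. The part of RNA integrity in the small differences here was not tested.

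Aldolases cleave fructose 1,6-bisphosphate. Aldoc, the brain form, read 10.41, 10.40 and 10.55 at 3 months and 10.38, 10.30 and 10.38 at 8 months, each older retina being slightly lower, with a difference of -0.10 ± 0.08 (SE; limma adjusted p = 0.585). Its dimmer probe set stood at 4.11, 4.26 and 5.59 and at 4.81, 3.90 and 4.10, and was highest in the 2 lens-rich retinas, 3-month retina 3 and 8-month retina 1. Whether lens material contributed to that probe set was not tested. All 5 Aldoa probe sets, whose suffix marks probes that may match other transcripts, differed by -0.02 to 0.29. Tpi1, triose-phosphate isomerase, differed by 0.06 to 0.16 over 3 probe sets, and Pgk1, phosphoglycerate kinase, by -0.03 to 0.12 over 3. Eno2, the neuronal enolase, differed by 0.02.

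Of the phosphofructokinase subunits, Pfkl, the liver type, differed by -0.20, Pfkm, the muscle type, by -0.02 and Pfkp, the platelet type, by 0.08 (log2). The further probe sets of Pfkl differed by -0.07 and 0.18, and those of Pfkp by -0.18 and 0.24. No phosphofructokinase probe set passed.

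The lower end of the pathway showed opposite signs for the 2 lactate dehydrogenase subunits, neither passing. Pkm, pyruvate kinase, read 11.44, 11.52 and 11.55 at 3 months and 11.32, 11.37 and 11.53 at 8 months, a difference of -0.09 ± 0.09 (SE; limma adjusted p = 0.642). Ldha, the subunit that favours lactate formation, read 11.61, 11.47 and 11.57 against 11.37, 11.29 and 11.57, with 8-month retina 3 level with the younger retinas. Its difference was -0.14 ± 0.10 (SE; limma adjusted p = 0.525). Ldhb, the subunit that favours lactate use, read 10.51, 10.40 and 10.33 against 10.46, 10.52 and 10.67. Its difference was 0.14 ± 0.09 (SE; limma adjusted p = 0.513), and the 4 Ldhb probe sets differed by 0.03 to 0.14. Both sets of ages overlapped. Whether Ldha and Ldhb differed from each other in their change was not tested.

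**Figure D2:**
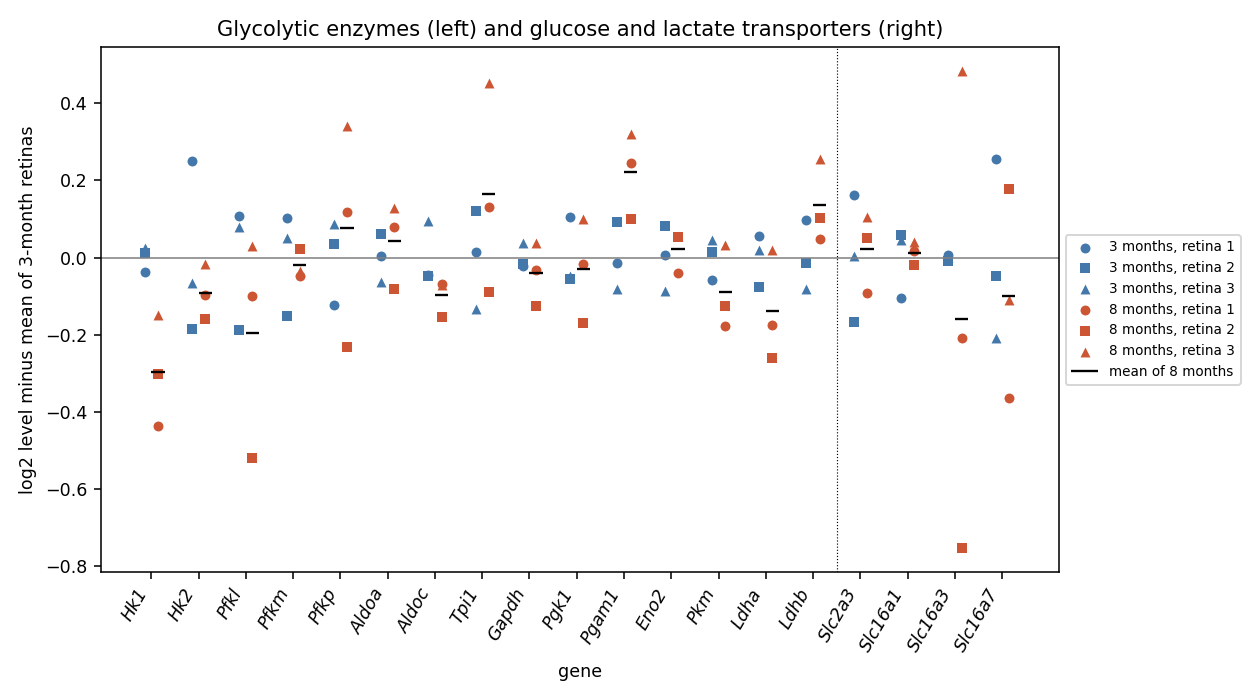
Log2 level in each retina minus the mean of the 3-month retinas (vertical axis) for the enzymes and transporters (horizontal axis), with blue for 3 and orange for 8 months, a marker shape per retina and a black bar at the 8-month mean. In Hk1 every older retina lies below every younger one. In Slc16a3 the younger retinas coincide while the older ones spread, with log2 levels before subtraction from 5.31 to 6.54.

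Mean log2 differences of the transport genes ran from -0.16 to 0.02. Slc2a3, the neuronal glucose transporter GLUT3, read 11.07, 10.74 and 10.91 at 3 months and 10.81, 10.95 and 11.01 at 8 months, a difference of 0.02 ± 0.11 (SE; limma adjusted p = 0.943). Both kept Slc2a3 probe sets may match other transcripts by their suffix, and the other differed by -0.09. Slc16a1, the monocarboxylate transporter MCT1, read 11.71, 11.87 and 11.86 against 11.83, 11.79 and 11.85, a difference of 0.01 ± 0.08 (SE; limma adjusted p = 0.952). A dimmer Slc16a1 probe set differed by -0.09. In both genes the ages overlapped throughout. Slc16a7, the transporter MCT2, differed by -0.10 with a 95% interval from -0.50 to 0.31. Slc16a3, the lactate exporter MCT4, was 6.07, 6.05 and 6.06 in the younger retinas but 5.85, 5.31 and 6.54 in the older ones. The older retinas thus stood on both sides of a tight younger group, and the mean difference of -0.16 ± 0.28 (SE; limma adjusted p = 0.803) hides that spread.

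Regulatory kinases set the flow into glycolysis and away from the mitochondria. Pfkfb enzymes make fructose 2,6-bisphosphate, the activator of phosphofructokinase, and Pdk enzymes switch off pyruvate dehydrogenase. Pfkfb2 had the smallest unadjusted p of all members. Its brightest probe set read 10.66, 10.65 and 10.80 at 3 months and 10.33, 10.49 and 10.26 at 8 months, so the ages did not overlap. The difference was -0.34 ± 0.09 (SE), a 1.27-fold lower mean (limma unadjusted p = 0.00864, adjusted p = 0.241). A dim Pfkfb2 probe set went the other way, at 4.47, 4.01 and 3.87 against 4.59, 4.40 and 4.75, a difference of 0.47, and the remaining kept set differed by -0.08. The probe sets of this gene therefore disagreed in direction.

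Pfkfb3, the inducible form, read 6.62, 6.20 and 6.43 against 6.72, 6.29 and 7.19, the highest value being 8-month retina 3. Its difference was 0.32 ± 0.23 (SE; limma adjusted p = 0.530). Pdk1, Pdk2 and Pdk3 differed by -0.09, -0.20 and -0.23, none passing, and over the 4 Pdk1 probe sets the difference ran from -0.20 to 0.20. The median of the 5 kinases was -0.20, moving to -0.05 without 8-month retina 2.

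In the oxygen-sensing group 5 of 7 genes had ages that did not overlap, 3 higher and 2 lower at 8 months. Over all genes 6.05% were higher and 16.9% lower by that measure. The margins were narrow, as the values of the 5 genes show, and none passed. Hif1a, the oxygen-labile subunit, read 12.29, 12.57 and 12.12 at 3 months and 12.65, 12.67 and 12.61 at 8 months, a difference of 0.31 ± 0.12 (SE; limma adjusted p = 0.309). Another bright Hif1a probe set was level, at 12.37, 12.44 and 12.32 against 12.37, 12.36 and 12.35. The other kept set differed by 0.28 with overlapping ages, so the higher reading rests on the choice of probe set.

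Epas1 encodes HIF-2 alpha, prominent in endothelium. It read 10.42, 10.30 and 10.34 against 10.30, 10.15 and 10.17, a difference of -0.15 ± 0.08 (SE; limma adjusted p = 0.433), the groups touching at the printed precision. The endothelial marker list, 3 of its 5 genes above the filter, averaged 4.33 to 4.54 at 3 months and 4.18 to 4.26 at 8 months (log2), also without overlap, and its part in the Epas1 reading was not tested. Arnt, the common partner, read 9.62, 9.92 and 9.82 against 9.93, 9.95 and 9.98, a difference of 0.17 ± 0.10 (SE; limma adjusted p = 0.445). Other Arnt probe sets differed by -0.14 and 0.18.

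The prolyl hydroxylases and VHL form the braking arm. Egln3, the hydroxylase gene that HIF itself induces, was dim at both ages. It read 5.05, 5.10 and 5.37 at 3 months and 5.39, 5.37 and 5.56 at 8 months, with the groups touching. Its difference was 0.27 ± 0.11 (SE), a 1.21-fold higher mean (limma adjusted p = 0.330). Vhl read 10.50, 10.45 and 10.52 against 10.35, 10.41 and 10.40, a narrow separation of -0.10 ± 0.07 (SE; limma adjusted p = 0.531). Egln2, another hydroxylase, differed by 0.07. Egln1, the main oxygen sensor, had closely grouped younger retinas at 10.40, 10.36 and 10.30 and scattered older ones at 10.17, 9.89 and 10.66. The mean difference was -0.11 ± 0.19 (SE; limma adjusted p = 0.790). A dimmer Egln1 probe set differed by -0.29 and showed the reverse spread. It read 5.79, 5.11 and 5.38 at 3 months and 5.09, 5.12 and 5.20 at 8 months.

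Hypoxia targets showed no common direction, with 3 of 6 above 0 and a median log2 difference of 0.02. Ddit4, a stress-induced inhibitor of mTOR signalling, read 12.30, 12.29 and 12.45 against 12.15, 12.16 and 12.44, a difference of -0.09 ± 0.11 (SE; limma adjusted p = 0.697). Bhlhe40, a transcriptional repressor, read 7.07, 7.13 and 7.18 against 7.34, 7.21 and 7.50, every older retina being higher, with a difference of 0.22 ± 0.10 (SE; limma adjusted p = 0.349). Adm encodes adrenomedullin, a vasodilator peptide. It read 5.66, 4.36 and 5.75 against 5.19, 5.18 and 6.74, from a less specific probe set, and its other probe set lay below the filter. The Adm difference of 0.44 ± 0.52 (SE; limma adjusted p = 0.698) went to -0.07 without 8-month retina 3. Ankrd37, an ankyrin-repeat gene, P4ha1, a collagen prolyl hydroxylase subunit, and Ndrg1, a stress-response gene, differed by -0.16, 0.07 and -0.03. Over the 5 Ndrg1 probe sets the difference ran from -0.38 to -0.01. The lowest was a dim set whose ages did not overlap, at 4.35, 4.07 and 4.37 against 4.05, 3.93 and 3.67 (limma adjusted p = 0.285).

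**Figure D3:**
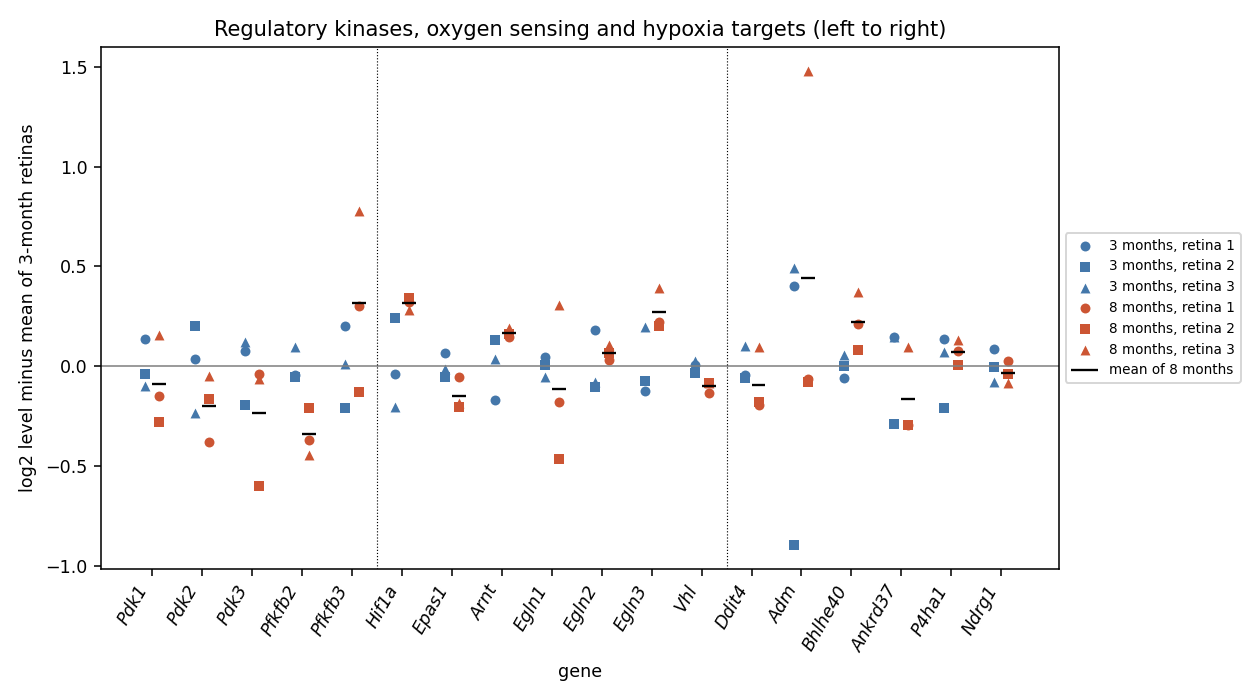
Log2 level in each retina minus the mean of the 3-month retinas (vertical axis) for the regulatory kinases, oxygen-sensing genes and hypoxia targets (horizontal axis), drawn with the colours and shapes of 3 (blue) and 8 months (orange). 8-month retina 3, the orange triangle, is the highest of the 6 retinas for Pfkfb3, Egln1 and Adm. Its log2 levels before subtraction were 7.19, 10.66 and 6.74.

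The older retinas also differed among themselves. In 31 of 37 members, or 83.8%, 8-month retina 3 read above 8-month retina 2, beside 53.6% of all genes. The median gap was 0.16 for members and 0.01 for all genes (log2). Retina 3 was the highest and retina 2 the lowest of the older retinas in 18 members, or 48.6%, beside 18.3% of all genes. These are values of 1 retina against 1 retina, looked for after the levels had been seen, and they carry no test. The counts were 31, 29 and 32 after quantile normalization, median centring and cyclic loess. Pairs of younger retinas were not counted in this way. Against the 3-month mean, median levels of the hypoxia targets were 0.11, -0.13 and 0.09 at 3 months (log2). At 8 months they were -0.02, -0.06 and 0.11, so the younger retinas differed among themselves as well. Medians of the enzymes were 0.01, -0.02 and 0.02 at 3 months, and -0.04, -0.13 and 0.04 at 8 months.

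The gap was widest in Adm, at 1.56, followed by Slc16a3 at 1.24, Pfkfb3 at 0.91 and Egln1 at 0.78, the genes whose upstream windows are printed above. Pfkp, Pfkl, Tpi1, Pdk3, Pdk1 and Ankrd37 followed with gaps of 0.57, 0.55, 0.54, 0.54, 0.43 and 0.39. All 10 exceeded the 95th percentile of all genes, 0.37. The 4 Pdk1 probe sets read 7.95, 6.73, 6.28 and 5.71 in retina 2 and 8.39, 7.38, 7.56 and 6.56 in retina 3, all in 1 direction, as were the 3 sets of Tpi1. A dimmer set of Egln1 and one of Pfkp were closer, with Egln1 at 5.12 in retina 2 and 5.20 in retina 3, and Pfkp at 5.24 and 5.25. Dim sets of Adm and Pfkfb3 below the filter read lower in retina 3. Slc16a7 and Pfkfb2 ran the other way, by -0.29 and -0.23. Hif1a, Pfkm, Ndrg1 and Vhl also had gaps below 0, of -0.06, -0.06, -0.05 and -0.0014.

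By role, retina 3 read higher in 14 of 15 enzymes, 3 of 4 transporters, 4 of 5 kinases, 5 of 7 oxygen-sensing genes and 5 of 6 hypoxia targets. The SD was larger at 8 than at 3 months in 22 members, or 59.5%, beside 37.6% of all genes. By role this held in 11 of 15 enzymes, 2 of 4 transporters and 4 of 5 kinases. It held in only 2 of 7 oxygen-sensing genes and 3 of 6 hypoxia targets. The median SD of the oxygen-sensing genes was 0.15 at 3 months and 0.04 at 8 months (log2). Retinas 2 and 3 were both from right eyes. Final pressure was 26.5 mmHg in the eye of retina 2 and 30.4 mmHg in that of retina 3, and 25.3 mmHg in that of retina 1. Marker means in retinas 2 and 3 were 12.84 and 12.85 for rods, 6.82 and 6.70 for gliosis, 6.11 and 6.09 for microglia, 3.22 and 3.51 for lens and 5.43 and 4.43 for pigment epithelium (log2). The Gapdh 3' minus 5' signal was 0.755 and 0.774. The part of pressure, tissue makeup or handling in the gap was not tested.

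**Figure D4:**
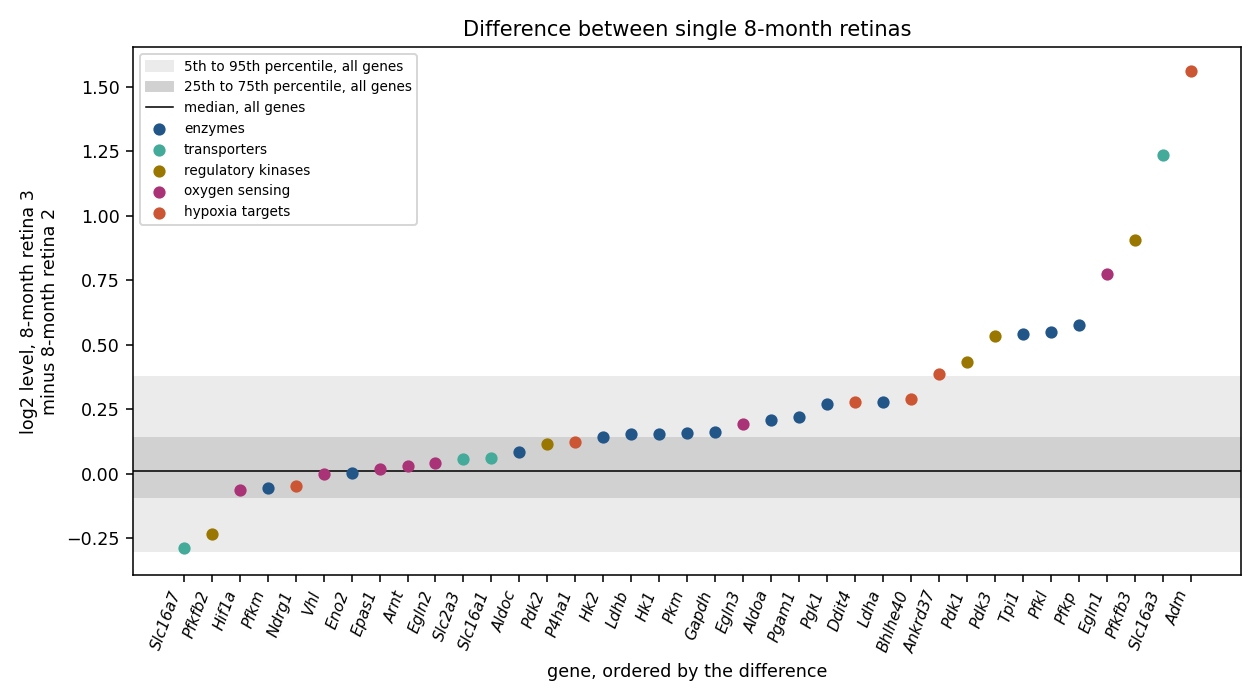
Log2 level in 8-month retina 3 minus that in 8-month retina 2 (vertical axis) for each member in order of the gap (horizontal axis), coloured by role, over the spread of all 11220 genes in grey. Most points lie above the median of all genes, 0.01, and 10 lie above the 95th percentile, 0.37.

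Other genes of the same pathways were read from a list by name. Of 40 further glycolysis and pyruvate genes 29 were measured, and 0 passed over all probe sets (limma), with 7 at an unadjusted p under 0.05, of which 1 was higher and 6 lower at 8 months. Of all genes 15.1% reached that p, 3.58% higher and 11.5% lower, a split that median centring turned as given above. Pdk4, the pyruvate dehydrogenase kinase tied to fatty acid use, was the furthest from level. It read 4.77, 5.46 and 5.87 against 4.38, 4.68 and 3.72, a difference of -1.11 ± 0.33 (SE; limma adjusted p = 0.258), with values near the filter. Bpgm, which makes 2,3-bisphosphoglycerate, Dlat, the acetyltransferase of pyruvate dehydrogenase, and Pgd of the pentose phosphate pathway differed by -0.23, -0.28 and -0.41, and the phosphatase gene Pdp2, which reactivates pyruvate dehydrogenase, by 0.25. Dlat had a further probe set at 0.07.

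Of 32 further oxygen-response genes 24 were measured, with 0 passing (limma) and 2 at an unadjusted p under 0.05, both higher. Over all genes the share at that p was 15.1%, with 3.58% higher and 11.5% lower. Median centring turned that split to 8.54% and 5.02%. Differences were above 0 in 14 of the 24 and below in 10, with a median of 0.01. Plod2, a collagen lysyl hydroxylase, read 5.25, 5.37 and 5.14 against 5.87, 5.64 and 5.64, a difference of 0.46 ± 0.10 (SE; limma adjusted p = 0.211) with no overlap. Vegfa, the vascular growth factor, and Wsb1, a ubiquitin ligase adaptor, differed by 0.53 and 0.31, and a further Vegfa probe set by 0.05. In this list 8-month retina 3 read above retina 2 in 19 of 24 genes, with a median gap of 0.29, and in the further glycolysis and pyruvate genes in 20 of 29, with a median gap of 0.03, beside 53.6% and 0.01 over all genes. Among the oxygen-response genes, Ak4, a mitochondrial adenylate kinase, and Bnip3, a mitophagy receptor, had gaps of 0.93 and 0.72. Hif3a in that list ran the other way, at -0.38, as did Pdk4 among the glycolysis and pyruvate genes, at -0.96.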

How the data were processed

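Messenger RNA was measured on Affymetrix arrays, 1 retina per array. The authors deposited log2 values per probe set, which the submitters' processing notes tie to GCRMA 1.1.0 and R 1.9.0. Options, scan dates and detection calls are not given in the sources used here. Weak signals are compressed by GCRMA, which can shrink differences of dim genes, and the number of arrays limits the precision.

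Of 45101 probe sets, 61 controls were left out; the 3 Gapdh control sets were kept because the platform annotation assigns them to that member. Probe sets with at least 3 of 6 values at 4 or above were kept, 20976 in all. Annotation gave 34958 probe sets 1 gene, 932 several and 9211 none. The kept probe set of highest mean stood for its gene. The 2 ages entered a linear model in limma 3.58.1 (lmFit, eBayes; R 4.3.3), two-sided, with p-values adjusted by Benjamini-Hochberg across the 20976 probe sets, a threshold of 0.05 and 95% intervals. SD, SE and differences are on the log2 scale. The fitting code was run on simulated data with independent normal noise, a check of the code and not of the results here. An exact permutation test of 3 against 3 cannot go below p = 0.1 and was not used. Replicate numbers name separate animals.

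Values per retina are given for members with an unadjusted p under 0.05 or non-overlapping ages and for a fixed set of main enzymes, transporters and HIF genes; of other pathway genes, up to 4 per direction of smallest p are named. Genes singled out for gaps between the older retinas were chosen after their values were seen. Members and lists were chosen with earlier results of these data known. Alternatives were other filters, scalings, probe set rules and variance options, eye side, a replicate block and left-out retinas.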

Additional observations from a re-analysis of the deposited data

How the results depend on the processing

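No member passed at an adjusted p under 0.05 (limma) in any of the 17 alternatives, the smallest adjusted p among the 19 members followed being 0.114. The count at an unadjusted p under 0.05, 5 with all arrays, was 2 with eye side as a covariate, 1 without both lens-rich retinas, 3 with the median over all kept probe sets, and 1 to 5 when single retinas were left out. It was 7 with no filter and 7 with median centring. Shares of all genes, 15.1% with all arrays, were 9.06%, 7.02%, 15.6%, 9.03% to 19.7%, 12% and 13.6% in that order. Median centring moved the median log2 difference to 0.055 for enzymes, 0.040 for transporters and 0.15 for oxygen sensing, which was 0.14 after quantile normalization, 0.14 after cyclic loess and -0.017 with the filter at 6. Eye side moved transporters to -0.15, and the median over probe sets moved kinases to -0.033. Leaving out single retinas gave -0.27 to -0.051 for kinases and 0.015 to 0.085 for oxygen sensing. The causes were not tested. Of 319 single-gene differences, 304 kept their sign. The others were Gapdh at 0.044 with median centring, Slc2a3 at -0.093 and Adm at -0.066 with eye side, Ddit4 at 0.010 without both lens-rich retinas, and Slc2a3 at -0.032, Slc16a1 at -0.041 and Pfkfb2 at 0.33 with the median over probe sets. Leaving out single retinas gave -0.18 to 0.034 for Hk2, -0.079 to 0.0032 for Gapdh, -0.063 to 0.10 for Slc2a3, -0.039 to 0.042 for Slc16a1 and -0.073 to 0.71 for Adm.

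Retinas of the 2 ages share only a replicate number, with correlations of -0.14, 0.06 and -0.28 between same-numbered deviations. With the replicate block, 4 members had an unadjusted p under 0.05 and 0 passed (limma). Dim probe sets, such as those of Egln3, Slc16a7, Pdk2, Adm and Slc16a3, give the least secure readings.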

Other observations

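Probe sets assigned to a member together with other genes were left out of the comparison. Of these, 3 cover Bnip3l, a mitophagy receptor gene and HIF target, with its pseudogene. Their log2 differences between 8 and 3 months were 0.09, -0.03 and 0.03, with means of 9.03 and 9.12, 10.06 and 10.03, and 10.56 and 10.58 at 3 and 8 months. The brightest set naming Gapdh with its copies read 13.51 ± 0.01 in the younger and 13.48 ± 0.07 in the older retinas (SD, n = 3 each). Dimmer sets naming Gapdh with a pseudogene differed by 0.31 and 0.21, with means of 7.39 and 7.69, and 3.73 and 3.94, at 3 and 8 months.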
